A study of Homo sapiens with 45 samples.

Results

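The gene expression shared by HOS-MNNG and KHOS, a pair of human osteosarcoma cell lines that both descend from the HOS line, was set against that of 4 unrelated osteosarcoma lines, G292, MG63, SAOS2 and U2OS. Each line was 1 unit, the mean of 3 RNA sequencing libraries, so that 6 libraries of HOS derivatives were compared with 12 libraries of the other lines, out of 45 libraries in the whole study. A gene was taken as shared by the HOS derivatives when both lay above the highest, or both below the lowest, of the other 4 lines, with a gap between the nearest lines of at least 1 on the log2(TPM + 1) scale. TPM is a level scaled for transcript length and library depth. Of 23803 genes tested, 237 lay above the range (0.996%) and 297 lay below it (1.25%).

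The study compared 7 Ewing sarcoma lines with these 6 osteosarcoma lines by poly(A) RNA sequencing. Per the labels, HOS-MNNG is MNNG/HOS Cl #5, a clone, KHOS is KHOS/NP, and G292 is G-292 clone A141B1, while MG63, SAOS2 and U2OS are MG-63, SaOS-2 and U2OS. None of the osteosarcoma lines carried a stated treatment or engineered allele. As background, HOS was established from a human osteosarcoma, MNNG/HOS was obtained from it with the chemical carcinogen MNNG, and KHOS with a murine sarcoma virus. Both therefore go back to 1 tumour, and the spread between them is not the spread between tumours. The labels do not say that the 3 libraries of a line came from separate cultures, so the spread between libraries may be technical. HOS derivative libraries held 30281960 to 33938388 estimated counts and those of the other osteosarcoma lines 15974173 to 44911542. Across 21912 genes, HOS-MNNG libraries correlated with KHOS libraries at a Pearson r of 0.960 to 0.964 over 9 pairs, against 0.811 to 0.873 for HOS derivatives with other osteosarcoma lines over 72 pairs. Libraries of 1 line correlated at 0.986 to 0.993. The genes within a library are not independent replicates, and these values are descriptions.

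Osteosarcoma is a bone tumour whose cells make osteoid, the collagen-rich matrix of bone. Osteoblasts, the normal bone-forming cells, are defined by the transcription factors RUNX2 and SP7, by type I collagen, and by products of mineralization such as alkaline phosphatase (ALPL) and osteopontin (SPP1). FLI1 is a transcription factor of the ETS family, which binds DNA around the letters GGAA. It is normally made in blood and endothelial cells, and in Ewing sarcoma its DNA-binding part is joined to EWSR1 by a chromosome translocation.

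The label of osteosarcoma was checked against the osteoblast markers. In the HOS derivatives RUNX2 measured 8.80 ± 0.712 TPM in HOS-MNNG and 6.65 ± 1 TPM in KHOS (SD, n = 3 libraries each), below SAOS2 at 186.7 TPM and above MG63 at 0.390 TPM. SP7 was at 0.0125 and 0.0124 TPM in HOS-MNNG and KHOS, and IBSP, a bone matrix sialoprotein, was at 0 in both. SP7 exceeded 1 TPM in SAOS2 alone among the 6 lines, with 22.1 TPM. Summed over the 24 osteoblast genes, HOS-MNNG reached 324.5 TPM and KHOS 586.3 TPM, below the 1502 to 5093 TPM of the other 4 lines. The summed osteoblast level was thus lowest in the HOS derivatives among the 6 lines, and SP7 was also at or near 0 in G292, MG63 and U2OS.

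**Figure D1:**
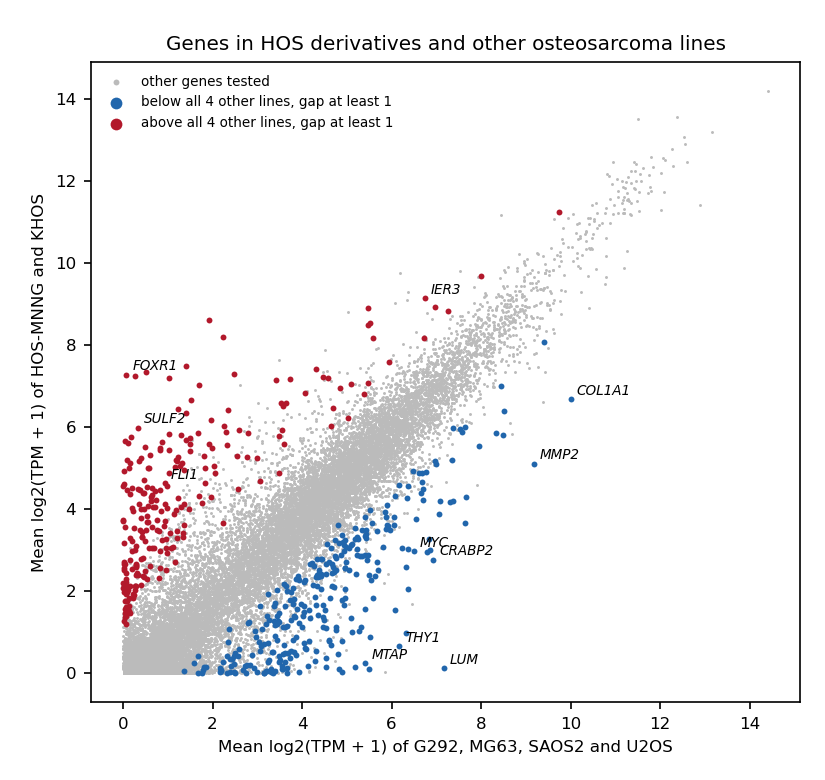
Mean log2(TPM + 1) of the 2 HOS derivatives (vertical axis) against that of the 4 other osteosarcoma lines (horizontal axis), 1 point per gene for 23803 genes. The 237 genes above the range of the other lines (red) lie mostly at low levels in those lines, and the 297 genes below it (blue) reach into highly expressed matrix genes such as COL1A1 and MMP2.

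Counts summed per line were tested with edgeR's quasi-likelihood test with Benjamini-Hochberg adjustment (false discovery rate, FDR). It called 1 of 23803 genes at an FDR under 0.05 (0.0042%), FOXR1, while 3051 genes (12.8%) stood at p under 0.05 before adjustment. With DESeq2 as the tool, 1793 of 22684 genes passed (7.9%), 635 with higher (2.8%) and 1158 with lower levels (5.1%) in the HOS derivatives. edgeR over the line sums of all 13 lines of both tumour types gave 163 of 26117 genes (0.624%), 0.44% higher and 0.184% lower. A limma fit with line as a random effect gave 1012 of 21912 genes (4.62%), 3.68% higher and 0.94% lower. Beyond FOXR1, the genes below are therefore described by where their levels lay, and none of them passed the main test. For a single gene, the 2-sided exact permutation test of 2 against 4 lines has 15 splits and cannot go below p = 0.0667, the value it gave for FLI1 and FOXR1, among others.

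The genes outside the range were chosen by these same levels, so their share of calls is a description. Among the 237 higher genes, 217 had an unadjusted edgeR p under 0.05 and 181 were called by DESeq2, which gave no adjusted p for 29. Among the 297 lower genes the numbers were 290 and 253, with 13 lacking an adjusted p. All 6 HOS derivative libraries lay outside all 12 libraries of the other lines for all but 6 of the higher and all but 5 of the lower genes, against 4.02% and 8.07% of all genes tested. The gap reached at least 2 for 81 higher and 44 lower genes, and at least 4 for 18 and 2. THBD was just inside the threshold with a gap of 1.001 and UTP14A just outside it with 0.9932 on the higher side, and on the lower side PRR19 lay at 1.001 and PRUNE2 at 0.9981. Of the higher genes 182 were protein coding and 46 were long noncoding RNAs, and of the lower genes 270 and 16. With any gap at all, 1738 genes lay above (7.3%) and 5211 below (21.9%). Lower genes were thus the more numerous with any gap or a gap of at least 1, and higher genes with a gap of at least 2 or 4. Without replicate 1 of every line, 262 genes lay above and 256 below at a gap of at least 1.

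FLI1 (chr11:128685132-128813267, GRCh38.p14), the marker given for the HOS derivatives, lay above the range. Its level was 19.62, 19.03 and 21.99 TPM in the 3 HOS-MNNG libraries and 27.1, 27.6 and 28.3 TPM in the KHOS libraries. In the other lines it was 2.21, 2.28 and 1.91 TPM in G292, 1.71, 1.87 and 1.88 TPM in MG63, 0.777, 0.614 and 0 TPM in SAOS2, and 0, 0 and 0.0601 TPM in U2OS. All 6 HOS derivative libraries lay above all 12 others, with a 9.49-fold ratio between the nearest lines, HOS-MNNG and G292. The log2 fold change was 4.69 (SE 1.45), which edgeR did not call (FDR 0.322), and it ran from 4.26 to 5.22 when single lines or replicates were left out. KHOS lay above HOS-MNNG by 0.63 on the log2 scale (SE 0.08, edgeR FDR 8.64e-05 between libraries).

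By line means the FLI1 level of the HOS derivatives, 20.2 TPM in HOS-MNNG and 27.7 TPM in KHOS, lay above 1 Ewing sarcoma line, EW3 with 2.08 TPM, and below the other 6, which ran from 28.7 TPM in SKES1 to 44.6 TPM in MHHES1. Single libraries of KHOS overlapped those of RDES, SKES1, EW24 and TC71. The transcripts behind it differed. In the HOS derivatives the RefSeq transcript NM_002017.5 took 98.0% ± 1.26 of FLI1 TPM in HOS-MNNG and 98.0% ± 1.24 in KHOS (SD, n = 3), and it took 100% in G292. In the Ewing sarcoma lines the transcript NM_001271012.2 took 98.6% ± 0.252 in A673, 99.7% ± 0.505 in EW24, 92.4% ± 3.10 in MHHES1, 67.9% ± 24.8 in RDES, 94.1% ± 3.25 in SKES1 and 100% in TC71. EW3 was the exception, with 82.7% ± 27.8 on NM_002017.5 at its low level. NM_001271012.2 had at most 0.396% of FLI1 TPM in any HOS derivative library. Transcript shares are estimates of the authors' quantification, and a fusion transcript is not an entry of its own in the table.

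**Figure D2:**
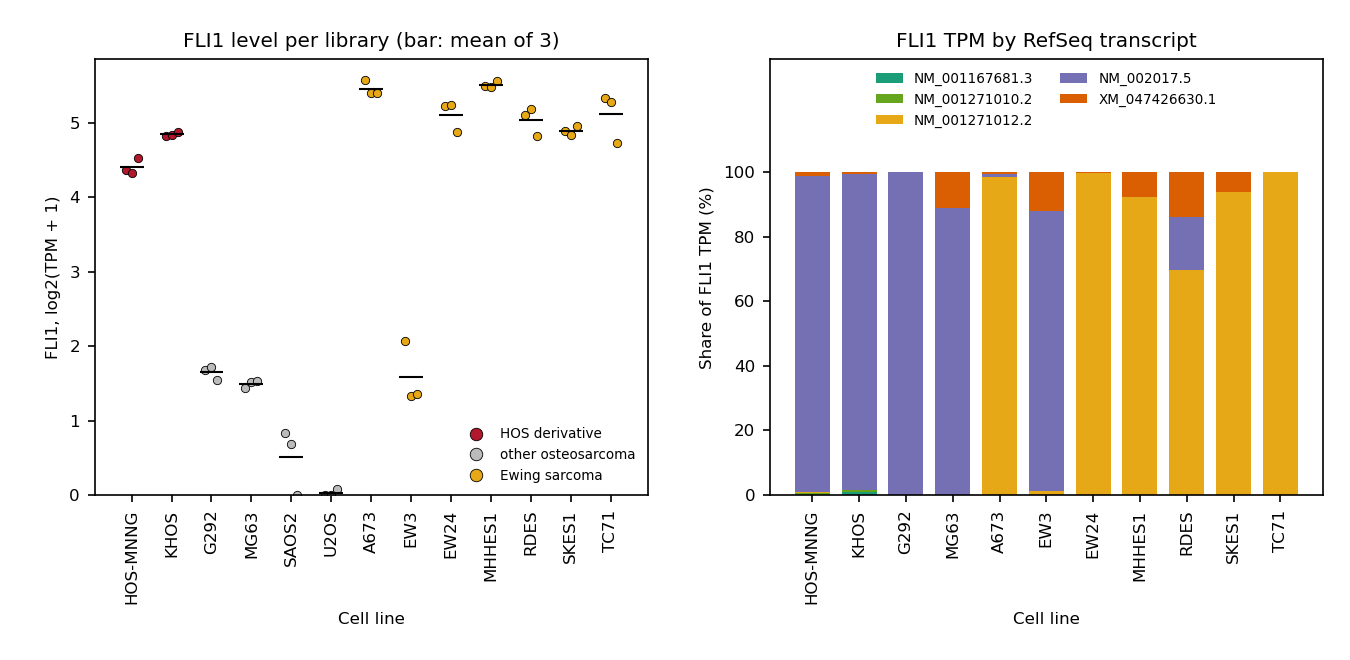
Left, FLI1 level on the log2(TPM + 1) scale in each library (points) and its line mean (bars), for the HOS derivatives, the other osteosarcoma lines and the Ewing sarcoma lines. Right, the share of each line's FLI1 TPM on 5 RefSeq transcripts, with SAOS2 and U2OS left out for their low FLI1 level: NM_002017.5 leads in HOS-MNNG, KHOS, G292, MG63 and EW3, and NM_001271012.2 in the other 6 Ewing sarcoma lines.

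SENCR, a long noncoding RNA that lies within the FLI1 locus, also lay above the range, with 2.44 ± 0.105 TPM in HOS-MNNG and 8.71 ± 0.305 TPM in KHOS against at most 0.640 TPM in the other lines. Whether reads were counted by strand is not given in the sources used here, so reads of SENCR and FLI1 may not be told apart. The neighbouring ETS gene ETS1 measured 55.9, 63.6 and 78.4 TPM in HOS-MNNG and 109.3, 97.2 and 109.0 TPM in KHOS, against line means of 30.6 to 49.9 TPM in the other lines. Its HOS derivative lines lay above the others by a gap that did not reach 1. The ETS1 libraries overlapped, since SAOS2 replicate 1 had 56.35 TPM, above HOS-MNNG replicate 1. Of the 25 ETS family genes tested, FLI1 alone lay outside the range by the chosen gap (4%, against 0.996% of all genes tested). EdgeR called 0 of them, 3 had an unadjusted p under 0.05 (12%, against 12.8% of all genes tested), and DESeq2 called 2 higher, FLI1 among them, and 1 lower, against 2.8% and 5.1% of all genes. Of 23 tested genes from a list activated by EWS-FLI1 in Ewing sarcoma, 0 were called by edgeR, 4 had an unadjusted p under 0.05 (against 12.8% of all genes tested), DESeq2 called 1, lower (against 5.1%), and 0 lay outside the range. Their median log2 fold change was -0.64, against -0.20 over all genes tested.

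FOXR1 (chr11:118971761-118981287), a forkhead transcription factor gene, was higher in the HOS derivatives and had the largest gap of all, 6.91. It measured 131.7, 126.9 and 124.9 TPM in HOS-MNNG and 172.9, 192.5 and 193.0 TPM in KHOS. In the other lines 8 of the 12 libraries held none and the highest, SAOS2 replicate 1, had 0.214 TPM, with 6 estimated counts over the 4 lines together. The log2 fold change was 12.08 (SE 0.66, edgeR FDR 0.0202). The call was lost when HOS-MNNG (FDR 0.345), KHOS (0.717), G292 (0.0632), MG63 (0.108) or U2OS (0.143) was left out, and without replicate 1 (0.067) or replicate 3 (0.112) of every line, with the log2 fold change between 11.48 and 12.86 throughout. FOXR1 was also above all 7 Ewing sarcoma lines, whose highest mean was 0.113 TPM.

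The next largest gaps belonged to genes of varied roles. MLPH, which encodes melanophilin, a linker of melanosomes to the actin motor, measured 170.2, 186.8 and 163.6 TPM in HOS-MNNG and 167.5, 136.5 and 148.4 TPM in KHOS, and at most 1.51 TPM in any other library (log2 fold change 8.51, SE 1.04, FDR 0.134). SLC17A9, the vesicular nucleotide transporter, had 30.85, 37.02 and 45.31 TPM in HOS-MNNG and 65.9, 64.9 and 65.9 TPM in KHOS, and at most 0.1095 TPM elsewhere (log2 fold change 11.52, SE 1.01, FDR 0.111). SLC17A9 held 9 estimated counts over the 12 other libraries, so the size of its fold change is uncertain. PLCH2, a phospholipase C, and SULF2, which removes sulfate from heparan sulfate outside the cell, lay at 34.98 and 44.47 TPM in HOS-MNNG and at 36.7 and 87.3 TPM in KHOS, with PLCH2 at most 0.1498 and SULF2 at most 0.786 TPM in any other library. AGR2, a protein disulfide isomerase of secretory epithelia, measured 34.1, 60.3 and 17.9 TPM in HOS-MNNG and 20.2, 28.2 and 21.4 TPM in KHOS. Its counts summed to 2 over the 12 other libraries, so no fold change is given. PRSS3, a trypsinogen, had 38.5 ± 7.39 and 29.9 ± 2.96 TPM in HOS-MNNG and KHOS (SD, n = 3), but it has close paralogs, and the sharing of reads among them is uncertain. For each of these genes every HOS derivative library lay above every other osteosarcoma library.

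IL10RA and LAPTM5, both known for expression in blood cells, and ARHGAP4 were among the named genes of the higher side. IL10RA, a chain of the interleukin-10 receptor, measured 53.9, 61.4 and 55.4 TPM in HOS-MNNG and 43.6, 40.8 and 35.4 TPM in KHOS, while G292 had 0 TPM and no other library exceeded 0.217 TPM (log2 fold change 9.73, SE 1.44, FDR 0.1501). LAPTM5, a lysosomal membrane protein of haematopoietic cells, had 114.6, 129.6 and 144.9 TPM in HOS-MNNG and 174.7, 162.6 and 161.9 TPM in KHOS, and its highest other library was MG63 replicate 1 with 3.19 TPM (log2 fold change 7.27, SE 0.97, FDR 0.135). ARHGAP4, a GTPase-activating protein, lay at 40.1 ± 9.08 and 49.5 ± 4.20 TPM (SD, n = 3) and at most 1.16 TPM elsewhere.

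The list of blood and endothelial markers was mixed. PTPRC, which encodes the pan-leukocyte antigen CD45, was at 0.0166 and 0.00490 TPM in HOS-MNNG and KHOS, SPI1 was at 0 in both, and CD34 and CDH5 did not exceed 0.105 TPM. PTPRC lay below all 4 other lines, which had 0.104 to 0.365 TPM, as did CD34, with 0.0149 and 0.0378 TPM against at least 0.0496 TPM, and EMCN, the endothelial sialomucin endomucin, with 0.0434 and 0.0325 TPM against at least 0.0491 TPM. All 3 fell short of the chosen gap, at levels under 1 TPM. The 28 blood and endothelial genes summed to 65.8 TPM in HOS-MNNG and 100.4 TPM in KHOS, and to 25.3 to 77.2 TPM in the other lines. Of the 22 that were tested, 2 lay above the range (9.09%, against 0.996% of all genes tested) and 0 below. Over the list the median log2 fold change was -0.16, edgeR called 0, 6 had an unadjusted p under 0.05 (against 12.8% of all genes tested), and DESeq2 called 2 higher and 2 lower (against 2.8% and 5.1%). The 2 above the range were ESAM, an endothelial adhesion molecule on chromosome 11, with 8.55 ± 2.05 and 19.9 ± 3.66 TPM against at most 0.662 TPM, and the transcription factor gene GATA2, with 22.9 ± 3.38 and 15.6 ± 5.21 TPM against at most 7.01 TPM (SD, n = 3). TIE1, an endothelial receptor tyrosine kinase, FLT1, a receptor for vascular endothelial growth factor, and LYL1, a transcription factor gene, lay above all 4 other lines in both derivatives, by less than the chosen gap in HOS-MNNG. TIE1 measured 0.827 TPM in HOS-MNNG and 33.9 TPM in KHOS against at most 0.210 TPM, FLT1 1.098 and 2.45 TPM against at most 0.810 TPM, and LYL1 1.06 and 2.48 TPM against at most 0.349 TPM.

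Metallothioneins are small cysteine-rich proteins that bind zinc and copper, encoded by a cluster of near-identical genes on chromosome 16. MT1A measured 79.3, 94.0 and 111.6 TPM in HOS-MNNG and 230.8, 244 and 230.3 TPM in KHOS, and at most 1.04 TPM in any other library (log2 fold change 9.98, SE 1.70, FDR 0.182). MT1F had 28.2, 30.6 and 32.2 TPM in HOS-MNNG and 24.9, 36.1 and 33.7 TPM in KHOS against at most 0.540 TPM (log2 fold change 8.52, SE 1.25, FDR 0.15). The cluster did not separate the groups as a whole. MT1G and the pseudogene MT1L also lay above the range, but MT2A ran from 4024 to 7641 TPM in the HOS derivative libraries and from 354.6 to 7454 TPM in the others, and MT1E reached 1309 to 1685 TPM in U2OS against 1137 to 1273 TPM in the HOS derivatives. MT1X lay on the other side, at 54.9 to 105.0 TPM in the HOS derivatives against 141.2 to 232.6 TPM in the other lines. The authors' quantification may have split reads among these copies, and their single levels are uncertain.

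**Figure D3:**
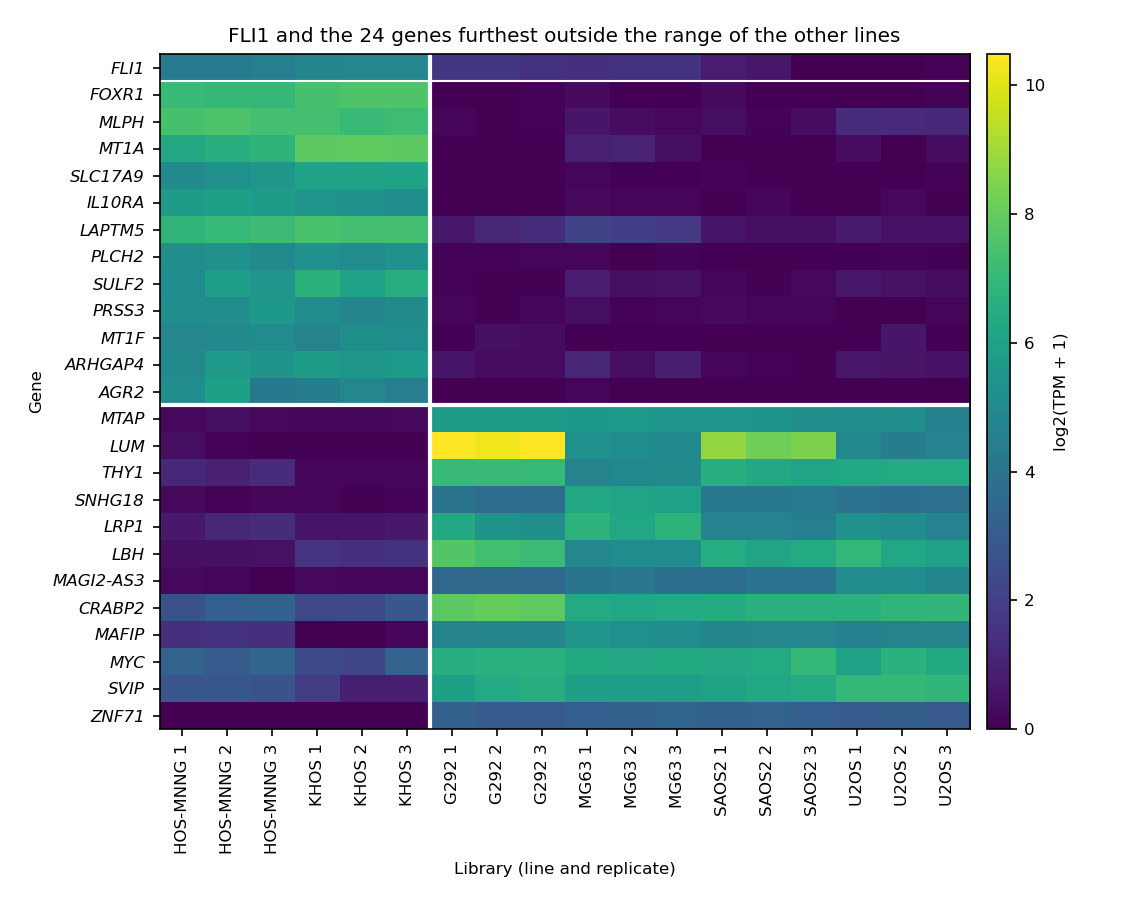
Log2(TPM + 1) of FLI1 (top), the 12 genes furthest above and the 12 furthest below the range of the other osteosarcoma lines, in 6 HOS derivative libraries (left of the white line) and 12 others. The 3 libraries of each line resemble each other, and HOS-MNNG and KHOS can be told apart by eye in MT1A, MAFIP and SVIP.

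MTAP (chr9:21802636-21941115) had the largest gap among the lower genes, 4.655. It encodes methylthioadenosine phosphorylase, the enzyme that recycles the methylthioadenosine left by polyamine synthesis. It measured 0.180, 0.317 and 0.155 TPM in HOS-MNNG and 0.109, 0.144 and 0.165 TPM in KHOS. G292 had 52.7, 50.9 and 52.0 TPM, MG63 46.90, 48.25 and 44.95 TPM, SAOS2 44.98, 42.09 and 36.09 TPM, and U2OS 31.9, 33.9 and 23.2 TPM. The groups did not overlap, and the HOS derivatives were also below every Ewing sarcoma line, the lowest of which had 18.6 TPM (log2 fold change -6.35, SE 0.79, FDR 0.135).

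MTAP lies next to CDKN2A and CDKN2B, which encode inhibitors of the cyclin-dependent kinases that drive entry into S phase. CDKN2A was 0.178, 0 and 0 TPM in HOS-MNNG and 0 in every KHOS library, but it was also 0 in MG63 and at most 0.178 TPM in U2OS, while G292 had 207.5 to 254.2 TPM and SAOS2 386.0 to 438.5 TPM. CDKN2B was at most 0.0284 TPM in the HOS derivatives and 0 in MG63, and it measured 2.95, 5.08 and 37.4 TPM as line means in U2OS, G292 and SAOS2. Neither gene was outside the range, since MG63 shared the low level, whereas MTAP was low in the HOS derivatives and in none of the other 11 lines. Of the 23 tested genes of a list of chromosome 9 genes around CDKN2A, MTAP alone lay outside the range by the chosen gap (4.35%, against 1.25% of all genes tested on that side). Over this list the median log2 fold change was -0.80, and edgeR called 0. Of the 23, 2 had an unadjusted p under 0.05 (against 12.8% of all genes tested), and DESeq2 called 5, all lower (against 5.1%). Further along the chromosome, FOCAD measured 16.34 and 18.96 TPM in HOS-MNNG and KHOS, within the range of the other lines. DMRTA1 had 2.28 and 2.33 TPM, close to U2OS with 2.31 TPM, the highest of the others. Genomic copy number was not measured, so the state of the locus was not tested.

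The promoters of FOXR1, the only called gene, of MLPH and IL10RA, a pair with large gaps, and of MTAP, the lower gene with the largest gap, are printed to show the sequence at these starts. They are RefSeq sequences on GRCh38.p14, from 250 bases before to 50 after the start used for each gene. For MLPH and IL10RA the printed window lies inside the annotated gene, which begins at chr2:237486410 and chr11:117986394. Both strands were searched for CCGGAA, a core of the ETS site, and capitals mark it as CCGGAA or, on the other strand, TTCCGG. The sequences span chr11:118971511-118971810, chr2:237487001-237487300, chr11:117989695-117989994 and chr9:21802386-21802685, all on the plus strand.
FOXR1: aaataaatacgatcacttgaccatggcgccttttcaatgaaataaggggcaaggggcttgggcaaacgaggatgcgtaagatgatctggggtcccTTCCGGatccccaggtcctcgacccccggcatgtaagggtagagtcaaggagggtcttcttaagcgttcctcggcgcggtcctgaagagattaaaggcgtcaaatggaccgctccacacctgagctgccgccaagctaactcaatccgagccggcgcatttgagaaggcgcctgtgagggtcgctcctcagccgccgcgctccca
MLPH: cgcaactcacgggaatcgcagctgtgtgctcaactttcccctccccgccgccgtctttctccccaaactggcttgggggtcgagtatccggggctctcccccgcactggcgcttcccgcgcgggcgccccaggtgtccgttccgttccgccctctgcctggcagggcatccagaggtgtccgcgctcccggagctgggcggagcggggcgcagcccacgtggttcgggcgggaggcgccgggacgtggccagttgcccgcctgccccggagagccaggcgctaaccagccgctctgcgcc
IL10RA: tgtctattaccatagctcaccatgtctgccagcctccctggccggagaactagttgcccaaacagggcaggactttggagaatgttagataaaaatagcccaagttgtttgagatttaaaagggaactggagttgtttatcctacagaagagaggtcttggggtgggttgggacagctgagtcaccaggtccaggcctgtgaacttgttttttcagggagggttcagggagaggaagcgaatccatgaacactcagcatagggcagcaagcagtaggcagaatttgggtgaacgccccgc
MTAP: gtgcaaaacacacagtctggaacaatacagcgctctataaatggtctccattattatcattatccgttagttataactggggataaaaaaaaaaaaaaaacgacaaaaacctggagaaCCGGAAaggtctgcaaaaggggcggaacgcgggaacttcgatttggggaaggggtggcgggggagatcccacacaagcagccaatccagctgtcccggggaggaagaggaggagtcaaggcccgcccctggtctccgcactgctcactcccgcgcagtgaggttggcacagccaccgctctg
FOXR1 and MTAP held 1 match each and MLPH and IL10RA 0. The letters occurred in 17.6% of all 27305 promoters in the table and in 23.6% of those of the 16968 tested genes that matched it. They occurred in 14.7% of the 156 higher genes and in 15.1% of the 225 lower genes with a promoter in the table. These shares are descriptions, and a match is not a binding site. The 4 promoters differed in their CG dinucleotides, with 22 in FOXR1, 34 in MLPH, 4 in IL10RA and 15 in MTAP, against a median of 23 among tested genes.

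The transcription factor gene MYC, which drives growth and ribosome production, was among the lower genes. It measured 8.70, 7.16 and 9.67 TPM in HOS-MNNG and 4.16, 3.63 and 8.72 TPM in KHOS. G292 had 92.4 to 101.4 TPM, MG63 79.0 to 82.9 TPM, SAOS2 79.2 to 125.5 TPM and U2OS 64.1 to 101.5 TPM. The lowest library of the other osteosarcoma lines was thus 64.1 TPM, and the Ewing sarcoma line means ran from 92.5 to 219.6 TPM, overlapping those of G292 and SAOS2 (log2 fold change -3.34, SE 0.37, FDR 0.113). The difference between KHOS and HOS-MNNG was not called (log2 fold change -0.45, SE 0.38, edgeR FDR 0.369). KHOS replicates 1 and 2 lay below every HOS-MNNG library, and KHOS replicate 3 lay among them.

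LUM, THY1 and LRP1 were among the lower genes with the largest gaps. LUM, which encodes the collagen-binding proteoglycan lumican, was at most 0.313 TPM in any HOS derivative library, while G292 had 1397, 1242 and 1435 TPM, SAOS2 444.1, 289.5 and 340.3 TPM, MG63 37.5, 33.1 and 29.1 TPM and U2OS 28.99, 20.6 and 24 TPM (log2 fold change -12.15, SE 3, FDR 0.264). THY1, the surface antigen CD90 of mesenchymal stromal cells, had 1.25, 0.936 and 1.5 TPM in HOS-MNNG and 0.148, 0.0950 and 0.0999 TPM in KHOS, against 24.9 TPM in the lowest other library and 137.9 TPM in the highest (log2 fold change -6.62, SE 1.33, FDR 0.214). LRP1, a large endocytic receptor, lay at 1.18 ± 0.480 and 0.564 ± 0.0842 TPM (SD, n = 3) against 24.1 to 98.2 TPM as line means. In each case the groups did not overlap.

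The remaining lower genes with the largest gaps were of other kinds. CRABP2, a carrier of retinoic acid, had 7.13 ± 1.86 and 4.68 ± 1.33 TPM against 82.3 to 239.2 TPM, and LBH, a transcription cofactor of limb and heart, 0.367 ± 0.0347 and 1.85 ± 0.143 TPM against 31.6 to 168.7 TPM (SD, n = 3). SVIP, a small inhibitor of protein degradation at the endoplasmic reticulum, had 5.95 and 1.46 TPM against 58.3 to 123.1 TPM. ZNF71, a zinc finger gene on chromosome 19, held 1 estimated count over the 6 HOS derivative libraries and 6.68 to 9.47 TPM in the other 12, and no fold change is given for so few counts. The noncoding RNAs SNHG18 and MAGI2-AS3 were at most 0.196 TPM in the HOS derivatives and at least 12.2 and 10.8 TPM in the other libraries. MAFIP, listed at 1.79 and 0.0422 TPM against 24.3 to 38.1 TPM, has near-identical copies and its counts are uncertain.

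The collagen and matrix list had 34 genes tested, of which 0 lay above the range and 6 below (17.6%, against 1.25% of all genes tested). Its median log2 fold change was -2.44, edgeR called 0, 10 had an unadjusted p under 0.05 (against 12.8% of all genes tested), and DESeq2 called 11, all lower (against 5.1%). The 6 were LUM, FBN2, COL8A1, COL1A1, LOXL1 and COL12A1. COL1A1, the main collagen of bone, measured 69.2, 82.9 and 65.1 TPM in HOS-MNNG and 151.2, 156.7 and 119.8 TPM in KHOS, against line means of 625.9 TPM in G292, 644.8 in U2OS, 852.7 in MG63 and 3192 in SAOS2 (log2 fold change -3.22, SE 0.92, FDR 0.308). FBN2, a fibrillin of elastic microfibrils, had 2.11 ± 0.249 and 2.16 ± 0.269 TPM against 22.1 to 36.9 TPM, and COL8A1 0.762 ± 0.131 and 0.335 ± 0.118 TPM against 8.68 to 33.2 TPM (SD, n = 3). The other 28 genes of the list were not outside the range by the chosen gap. FN1, fibronectin, lay below all 4 other lines by less than that gap, with 37.6 and 83.4 TPM against 142.5 to 1893 TPM. COL1A2, which pairs with COL1A1 in type I collagen, was 0.690 and 5.11 TPM in HOS-MNNG and KHOS but 0.134 TPM in U2OS.

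Of 30 metalloprotease genes tested, enzymes that process the matrix among them, 0 were above the range and 4 below (13.3%, against 1.25% of all genes tested). The 4 were ADAMTS1, MMP2, ADAMTS2 and ADAM12. Over the list the median log2 fold change was -1.45, edgeR called 0, 9 had an unadjusted p under 0.05 (against 12.8% of all genes tested), and DESeq2 called 7, all lower (against 5.1%). MMP2, which cleaves type IV collagen, measured 41.3, 46.0 and 37.6 TPM in HOS-MNNG and 27.3, 26.6 and 27.1 TPM in KHOS, against 154.1 to 1514 TPM as line means (log2 fold change -4.27, SE 1.14, FDR 0.291). ADAMTS1, which cleaves proteoglycans, had 1.01 ± 0.156 and 1.01 ± 0.232 TPM against 12.52 to 91.26 TPM (SD, n = 3). Of the 37 TGF-beta and BMP genes tested, TGFB3 and BMP1, a protease that trims procollagen, lay below (5.41%, against 1.25%) and 0 above. Of these 37, edgeR called 0, 7 had an unadjusted p under 0.05 (against 12.8% of all genes tested), and DESeq2 called 6, all lower (against 5.1%).

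Of 18 osteoblast genes tested, 1 lay above the range (5.56%, against 0.996% of all genes tested) and 2 below (11.1%, against 1.25%). Over the list the median log2 fold change was -1.70, edgeR called 0, 6 had an unadjusted p under 0.05 (against 12.8% of all genes tested), and DESeq2 called 4, all lower (against 5.1%). The higher gene, SPP1, had 32.7, 42.2 and 21.97 TPM in HOS-MNNG and 256.7, 145.2 and 187.5 TPM in KHOS, against 12.8 TPM in U2OS and at most 1.85 TPM in the other 3 lines. ALPL and COL1A1 were lower. ALPL measured 1.39, 0.0285 and 0.0265 TPM in HOS-MNNG and 0.0885, 0.122 and 0.156 TPM in KHOS, while the other lines ran from 2.82 TPM in MG63 to 824.3 TPM in SAOS2. The first HOS-MNNG library stood above the other HOS derivative libraries.

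Interferon genes were another group with members on the lower side alone. Of 26 tested, 4 lay below (15.4%, against 1.25% of all genes tested) and 0 above, with a median log2 fold change of -1.71. EdgeR called 0, and 8 had an unadjusted p under 0.05, against 12.8% of all genes tested. DESeq2 called 7, all lower, against 5.1% of all genes on that side. IFI6, an interferon-induced mitochondrial protein, measured 6.96, 9.56 and 9.55 TPM in HOS-MNNG and 8.49, 9.34 and 7.67 TPM in KHOS, against line means of 33.8 TPM in U2OS to 616.1 TPM in G292 (log2 fold change -4.24, SE 1.46, FDR 0.346). PARP9 and DTX3L, which act together as an ADP-ribosylating and ubiquitin ligase pair, had line means of 2.33 to 2.51 and 5.14 to 6.02 TPM against 11.6 to 47.6 and 14.6 to 31.2 TPM. IFI27 lay at 0.200 and 0.217 TPM against 1.48 TPM in the lowest other line. ISG15, by contrast, was inside the range, with 37.5 and 55.9 TPM against 26.5 to 290.9 TPM.

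Among 16 genes of MHC class I presentation, HLA-C and NLRC5, a transactivator of class I genes, lay below the range (2 of 16, against 1.25% of all genes tested) and 0 above. EdgeR called 0, 3 had an unadjusted p under 0.05 (against 12.8% of all genes tested), and DESeq2 called 3, all lower (against 5.1%). HLA-C measured 55.8, 78.2 and 89.4 TPM in HOS-MNNG and 43.7, 41.1 and 44 TPM in KHOS against 204.3 to 675.6 TPM as line means. HLA genes vary in sequence between people, and reads of close HLA genes may be shared. NLRC5 had 1.22 ± 0.356 and 0.527 ± 0.0851 TPM against 4.21 to 36.7 TPM (SD, n = 3). B2M was within the range.

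Of 24 genes that report RAS-MAPK signalling, 2 lay above the range (8.33%, against 0.996% of all genes tested) and MYC below (4.17%, against 1.25%), with a median log2 fold change of 1.03. EdgeR called 0, 4 had an unadjusted p under 0.05 (against 12.8% of all genes tested), and DESeq2 called 1 higher and 1 lower (against 2.8% and 5.1%). IER3, an immediate early gene, measured 347.5, 646.9 and 882.8 TPM in HOS-MNNG and 410.5, 567.3 and 565.5 TPM in KHOS against 47.0 to 231.6 TPM as line means. DUSP5, a phosphatase that acts on ERK, had 81.9 ± 15.2 and 99.5 ± 19.8 TPM against 4.06 to 39.1 TPM (SD, n = 3). DUSP6, FOSL1 and SPRY4 were inside the range or short of the gap. Of 16 genes for RAS-MAPK components, 0 were outside. In HOS-MNNG, MET, a receptor for hepatocyte growth factor, measured 64.9 to 66.4 TPM, inside the range of the other lines.

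Cytokine genes varied widely between libraries of 1 line. Of 20 tested, 3 lay above the range by line means (15%, against 0.996% of all genes tested) and 0 below. EdgeR called 0, 5 had an unadjusted p under 0.05 (against 12.8% of all genes tested), and DESeq2 called 1 higher and 1 lower (against 2.8% and 5.1%). CSF3, granulocyte colony-stimulating factor, had 0.0426, 0.686 and 19.3 TPM in HOS-MNNG and 2.31, 7.34 and 12.2 TPM in KHOS, and G292 reached 1.98 TPM in 1 library, so the libraries overlapped. CSF2 had 1.69, 15.4 and 61.2 TPM in HOS-MNNG and 4.21, 6.11 and 7.41 TPM in KHOS against at most 1.002 TPM as a line mean. ICAM1, an adhesion molecule for leukocytes, had 4.87, 13.7 and 34.7 TPM in HOS-MNNG and 10.21, 11.05 and 19.91 TPM in KHOS, against a line mean of 4.31 TPM in G292, the highest of the others. G292 reached 6.33 and 5.99 TPM in replicates 2 and 3, above HOS-MNNG replicate 1, so the ICAM1 libraries overlapped as well. CXCL8, an attractant of neutrophils, varied across the HOS-MNNG libraries too, from 0.580 to 90.8 TPM, and was inside the range.

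Genes of the cell cycle list lay outside the range on the lower side alone, 4 of 24 tested (16.7%, against 1.25% of all genes tested), with a median log2 fold change of -0.33. EdgeR called 0, 6 had an unadjusted p under 0.05 (against 12.8% of all genes tested), and DESeq2 called 5, all lower (against 5.1%). Besides MTAP and MYC they were CDKN2C, an inhibitor of CDK4 and CDK6, with 13.2 ± 1.92 and 22.5 ± 2.03 TPM against 62.3 to 294.2 TPM, and CDKN2D, with 8.69 ± 1.59 and 6.93 ± 1.15 TPM against 20.9 to 59.2 TPM (SD, n = 3).

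WNT genes split, with LRP5 and FZD8, both receptors, above the range and DKK3, a secreted member of the Dickkopf family, below, of 42 tested (4.76% above and 2.38% below, against 0.996% and 1.25% of all genes tested). The list had a median log2 fold change of -1.21, edgeR called 0, 9 had an unadjusted p under 0.05 (against 12.8% of all genes tested), and DESeq2 called 2 higher and 7 lower (against 2.8% and 5.1%). LRP5 measured 75.9, 121.3 and 78.1 TPM in HOS-MNNG and 89.7, 101.4 and 101.9 TPM in KHOS against 3.54 to 21.8 TPM as line means (log2 fold change 3.15, SE 0.73, FDR 0.244). DKK3 had 19.7 to 23.4 and 14.01 to 16.74 TPM against 118.7 to 741.1 TPM as line means. Among 21 integrin genes 1 lay on each side (4.76% each, against 0.996% above and 1.25% below). Of the 21, edgeR called 0, 4 had an unadjusted p under 0.05 (against 12.8%), and DESeq2 called 1 higher and 3 lower (against 2.8% and 5.1%). ITGA2, a collagen receptor chain, lay above with 74.9 ± 11.8 and 25.5 ± 2.47 TPM against at most 7.43 TPM, and ITGA7, a laminin receptor chain, below with 2.85 ± 0.637 and 0.695 ± 0.141 TPM against at least 14.1 TPM (SD, n = 3).

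Of 20 epithelial genes tested, only PKP3, a desmosome component, lay above (5%, against 0.996% of all genes tested) with 12.52 and 22.21 TPM against at most 4.27 TPM, and 0 lay below. EdgeR called 0 epithelial genes, 8 had an unadjusted p under 0.05 (against 12.8% of all genes tested), and DESeq2 called 5 higher and 3 lower (against 2.8% and 5.1%). CLDN3 and CLDN7, claudins of tight junctions, lay above all 4 other lines by less than the chosen gap in HOS-MNNG, with 1.31 and 5.31 TPM against at most 0.402 TPM for CLDN3 and 1.37 and 27.6 TPM against at most 0.206 TPM for CLDN7. KRT18 was at 935.1 and 800.4 TPM, but U2OS had 683.3 TPM, and CDH1 was at 0.0311 and 0.0331 TPM. Of 15 neural genes NCAM1 lay below (6.67%, against 1.25%), with 0.864 ± 0.263 and 0.0233 ± 0.0107 TPM against 14.2 to 40.2 TPM. The neural list had a median log2 fold change of -2.86, and edgeR called 0. In it 3 had an unadjusted p under 0.05 (against 12.8%), and DESeq2 called 2, all lower (against 5.1%). COL9A3 was the single gene above among 17 of cartilage and fat (5.88%, against 0.996%), and EPHA5 the single gene below among 42 receptor tyrosine kinases (2.38%, against 1.25%). DESeq2 called 2 higher and 2 lower of the 17, and 1 higher and 6 lower of the 42 (against 2.8% and 5.1%). EdgeR called 0 in either list. No gene of the muscle, HOX, telomere maintenance, HGF-MET and cancer-testis lists lay outside the range by the chosen gap. DESeq2 called 5 of 15 muscle and 4 of 16 cancer-testis genes, all lower (against 5.1%), with median log2 fold changes of -2.43 and -8.27. An unadjusted edgeR p under 0.05 was reached by 1 and 0 of them (against 12.8% of all genes tested). DESeq2 called 1 higher and 3 lower of 38 HOX genes, 1 higher and 1 lower of 12 HGF-MET genes, and 0 of 16 telomere maintenance genes. EdgeR called 0 in these lists. Across the 26 lists, DESeq2 called 104 of 585 list genes tested, 19 higher and 85 lower, and edgeR called 0. Of all 22684 genes with an adjusted p, DESeq2 called 7.9%, 2.8% higher and 5.1% lower. In bulk RNA fewer cells of a type and less RNA per cell cannot be told apart.

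HOS-MNNG and KHOS were compared directly over 3 libraries each, a test of the spread between libraries and not between tumours. edgeR called 9518 of 17437 genes (54.6%), 4727 of them higher in KHOS (27.1%). Of the 234 genes above the range that could be tested, 120 were called higher in KHOS and 29 higher in HOS-MNNG, and 59 of these differed by more than 2-fold. Of the 248 testable genes below the range, 66 were higher in KHOS and 67 in HOS-MNNG, and 50 differed by more than 2-fold. The median size of the difference was 0.62 on the log2 scale for the higher genes and 0.47 for the lower, against 0.42 over all genes.

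Some genes that set both derivatives apart from the other lines differed widely between them. NCAM1 was lower in KHOS by a log2 fold change of -5.13 (SE 0.41, edgeR FDR 2.09e-06), THY1 by -3.30 (SE 0.29, FDR 3.92e-06) and ADAMTS2, which trims procollagen, by -3.997 (SE 0.28, FDR 7.8e-07). SPP1 was higher in KHOS by 2.77 (SE 0.33, FDR 0.00134), LBH by 2.49 (SE 0.20, FDR 2.36e-06) and MT1A by 1.45 (SE 0.12, FDR 2.1e-06). FOXR1 was higher in KHOS by 0.62 (SE 0.08, FDR 6.64e-05). For MLPH the difference was -0.05 (SE 0.08, FDR 0.633) and for MTAP -0.48 (SE 0.34, FDR 0.252), and neither was called.

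**Figure D4:**
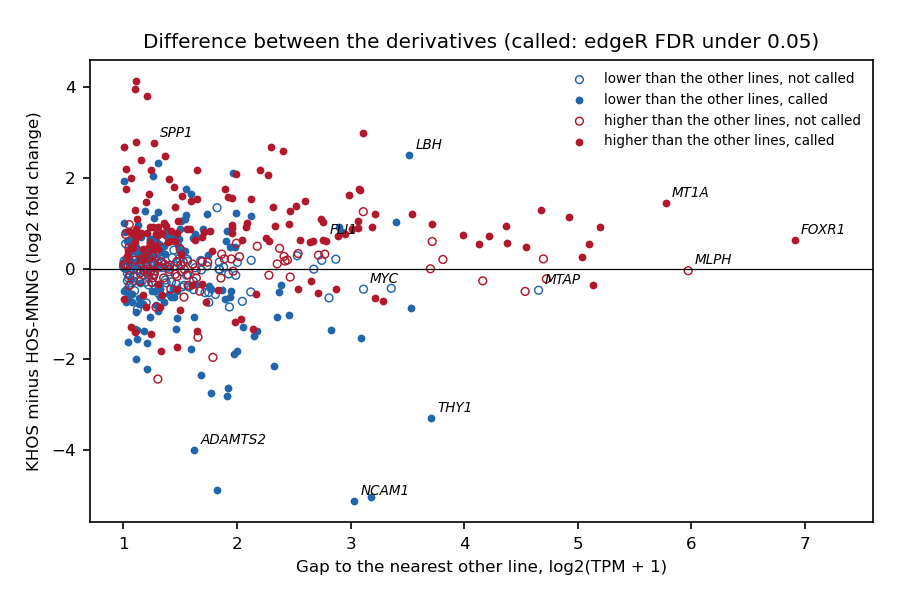
Difference between KHOS and HOS-MNNG (log2 fold change, vertical axis) against the gap to the nearest other osteosarcoma line (horizontal axis) for the genes outside the range that were tested between the derivatives, 234 higher (red) and 248 lower (blue). Filled points were called by edgeR at an FDR under 0.05: among the higher genes 120 lie above 0 and 29 below it.

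The 7 Ewing sarcoma lines took no part in choosing these genes. Both HOS derivatives were above all 7 for 169 of the 237 higher genes (71.3%), against 11.1% of all genes tested, and 68 lay within the Ewing sarcoma range or overlapped it. Both were below all 7 for 159 of the 297 lower genes (53.5%), against 18.7% of all genes tested, while 130 lay within or overlapped it and 8 lay above it. MLPH, SLC17A9, IL10RA, LAPTM5 and AGR2 were above every Ewing sarcoma line. FLI1, MT1F and ARHGAP4 were not, since ARHGAP4 reached 67.5 TPM and MT1F 134.3 TPM in Ewing sarcoma lines. MTAP, MYC, LRP1, LBH and ZNF71 were below every Ewing sarcoma line, whereas LUM and SNHG18 were low there too, at most 9.57 and 0.727 TPM. The HOS derivatives enter both comparisons, which are therefore not independent.

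The genes outside the range were spread over the chromosomes unevenly. Chromosome 17 held 27 higher genes among 1340 tested (2.01%, against 0.996% overall) and chromosome 1 held 50 lower genes among 2384 (2.1%, against 1.25%). Chromosome 18 held 0 higher genes among 368. In windows of 5 Mb the largest groups were on the short arm of chromosome 17, with 10 of 120 genes higher between 1 and 5000000 and 8 of 144 between 5000001 and 10000000, and on chromosome 1 between 155000001 and 160000000, with 14 of 102 genes lower. The median log2 fold change of all tested genes in these windows was 0.83, 0.66 and -0.93. The chromosome 17 genes included EIF4A1, a translation initiation helicase with 2494 and 2386 TPM in HOS-MNNG and KHOS against 696.5 to 990.6 TPM, and C1QBP, a mitochondrial protein with 906.4 and 753.6 TPM against 226.6 to 325.1 TPM. Those on chromosome 1 included CRABP2, MUC1, ASH1L and UBQLN4. These windows, and the genes named in them, were picked after the values were seen, and copy number, which was not measured, cannot be told apart from other sources of such a shift.

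On chromosome 11, FOXR1, IL10RA, SMIM35 and the microRNA gene MIR4492 lay above the range among 74 tested genes between 115000001 and 120000000. Between 120000001 and 125000000, 6 of the 49 did, among them ESAM and GRAMD1B. Of all genes tested, 0.996% lay above the range. The median log2 fold change was 0.37 and 0.93 in these windows. The genes there did not all share the direction, since THY1, between FOXR1 and ESAM, lay below the range. In the first window 2 of the 74 genes lay below it, THY1 among them, against 1.25% of all genes tested. Small RNAs such as MIR4492 are poorly held by poly(A) libraries, and their values may come from overlapping transcripts.

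**Figure D5:**
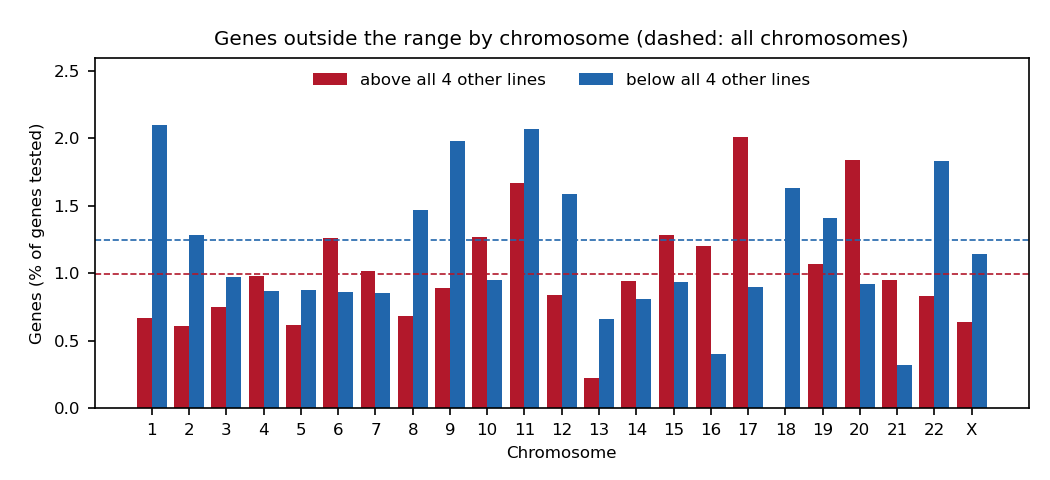
Share of tested genes on each chromosome that lay above (red) or below (blue) the range of the other osteosarcoma lines, with dashed lines for all chromosomes. Chromosomes 17 and 20 have the highest shares of higher genes, 2.01% and 1.84%, and chromosomes 1, 11 and 9 the highest of lower genes, 2.1%, 2.07% and 1.98%.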

How the data were processed

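The data were poly(A) RNA sequencing libraries of established human cell lines, prepared, per the labels, with Illumina's TruSeq Stranded mRNA chemistry. The authors deposited 1 table per library. Per the file headers it lists 177816 RefSeq transcripts with estimated counts, not scaled for depth, TPM and, as other values deposited by the authors, lengths and effective lengths. The submitters' processing notes name fastp 0.19.5, kallisto 0.46.2, hg38 and GRCh38.p14, with no options. Of the transcripts, 169960 (95.6%) were joined to 41578 genes by accession, version ignored, through RefSeq GRCh38.p14, and the 7856 without a gene were dropped. These held 1.16% to 1.6% of each osteosarcoma library's total and 1.07% to 1.36% of each Ewing sarcoma library's total.

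Estimated counts were summed per gene and per line, rounded, filtered with filterByExpr, scaled by trimmed means of M values and fitted with edgeR 4.0.16 (quasi-likelihood, robust), with Benjamini-Hochberg adjustment over all genes tested and calls at an FDR under 0.05. Alternatives used DESeq2 1.42.0 and limma 3.58.1 under R 4.3.3. Levels used log2(TPM + 1), a pseudocount of 1 TPM. Fold changes are HOS derivatives over other lines. Scripts were tested on simulated counts. Tables were made in Python 3.11.15 with pandas 2.3.3 and numpy 2.4.6, and plots with matplotlib 3.10.9.

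The members, the 26 gene lists and the tests were chosen with earlier results of these data known. Named by rule were FLI1 and the 12 higher and 12 lower genes with the largest gap, called or, where fewer were called, not called. Up to 4 genes outside the range were also named per list. Uncharacterized LOC and LINC genes were left out. Other genes stand beside a result, inside the range or beyond the other 4 lines. Some of them, such as MT1G, MT1L, ETS1, TIE1 and CLDN7, were named after their values were seen. The 6 libraries with a short hairpin RNA were not used.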

Additional observations from a re-analysis of the deposited data

Results flagged for a closer look

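The distance of 1 line from the rest was checked for each named gene among the 4 other osteosarcoma lines with Dixon's ratio, the gap to the nearest line over the whole range, on log2(TPM + 1). Chance marks about 1 in 20 groups. CSF3 was marked because G292 had 1.111 TPM and the other 3 lines 0, a ratio of 1. DKK3 was marked because MG63 had 741.1 TPM and the next line, U2OS, 149.9 TPM, a ratio of 0.873. Genes under 1 TPM in all 4 lines are not listed here. Among these were SENCR, where G292 stood apart with 0.640 TPM, and AGR2, where MG63 did with 0.0452 TPM. Both HOS derivatives lay above G292 in CSF3 by line means, with 6.69 and 7.28 TPM, and below all 4 lines in DKK3, with 21.96 and 15.49 TPM.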

How the results depend on the processing

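One limit is the number of lines, 2 from 1 tumour against 4. Against the 1 gene called, DESeq2 called 1793 (635 higher, 1158 lower), edgeR on 13 line sums 163 (115 and 48), and a fit with line as a random effect 1012 (806 and 206), so the side with more calls depended on the fit. When line means were fixed, so that only libraries varied, 15952 genes passed without and 15901 with the replicate block. Leaving out 1 replicate number of every line called 0 to 1 genes, and leaving out 1 line called 0 without G292, HOS-MNNG, KHOS, MG63 or U2OS (unadjusted p under 0.05 in 1043 to 3267 genes) and 2 without SAOS2, when PLCH2 joined FOXR1 (FDR 0.0467). FLI1 passed the threshold with DESeq2 (4.681) and with fixed line means without (6.058) and with the replicate block (6.062), and kept its direction under all 17 alternatives. No named gene changed direction.

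The count of genes above and below the range, 237 and 297, became 385 and 645 with a pseudocount of 0.1 TPM, 1738 and 5211 with no minimum gap, 81 and 44 with a gap of 2, where the higher side became the larger, 638 and 674 with log2 CPM, and 150 and 160 when the gap had to hold between all single libraries. Without a line fewer bounds apply, and the counts rose to 392 above without U2OS and to 465, 544 and 488 below without G292, MG63 and U2OS. They stayed within 1.5 times without SAOS2, without any replicate number (237 to 262 above, 256 to 330 below, with more above than below, 262 and 256, without replicate 1 alone), with no filter on low values, and among protein-coding genes, an alternative added after seeing the data (182 and 270). Of the list genes, edgeR called 0 under every line left out and DESeq2 called 104.

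Taken over 21912 genes, same-numbered libraries did not pair: over 45 pairs their deviations from the line mean correlated at -0.0746 to 0.103. Of these pairs, 1 exceeded 0.1. Single genes could still share an order. CXCL8 and CSF3 rose from replicate 1 to 3 in HOS-MNNG, KHOS and G292, while CXCL8 fell in U2OS. Between HOS-MNNG and KHOS the replicate block gave 9477 calls and the other alternatives 8390 to 10011, against 9518. Over the 60 named genes besides FLI1, 783 of 1017 values kept their side of the threshold, 227 passed it only under the alternative, and 7 lost it, all of FOXR1. Genes with few counts in 1 group, such as AGR2 and ZNF71, limit what depth allows.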
